A study of Homo sapiens with 4 samples.

Results

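The genes described here are 42 genes of the NF-kB pathway: its transcription factor subunits, the kinases, adaptors and receptors upstream of them, the inhibitors that hold the pathway back, and genes known as its targets. They were chosen by gene symbol for their known place in the pathway, with earlier results of these data known, and each was read from the brightest probe set that carried its symbol alone. Of the 42, 38 had such a probe set, out of 18417 genes represented in the series. RIPK1, TRAF2, BIRC3 and CSF2 had none and were not analysed here. All 38 also passed the filter on dim genes, which left 13813 genes for testing.

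NF-kB is a family of paired transcription factors built from RELA, RELB, REL, NFKB1 and NFKB2. In resting cells the IkB proteins keep the pairs in the cytoplasm. Stimulation by cytokines such as TNF activates the IkB kinases, the IkB proteins are destroyed, and the freed factors enter the nucleus, where they induce cytokines, adhesion molecules, survival genes and their own inhibitors. A slower branch runs through the kinase MAP3K14 and CHUK to NFKB2 and RELB. Triple-negative breast cancer lines such as MDA-MB-231 are known for NF-kB activity without added stimulus.

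RNA was measured on 4 Affymetrix arrays, all from cultures of MDA-MB-231, a long-established line of human triple-negative breast cancer. The sample titles name no treatment other than the hairpins. In 2 samples the cells expressed a non-specific hairpin RNA (shNS), and in the other 2 a hairpin against DBC1 (shDBC1). DBC1 is a nuclear protein encoded by CCAR2, which binds and inhibits the deacetylase SIRT1, and RELA is a known substrate of SIRT1. Each group is a pair of biological replicates per the labels; how many hairpin sequences or clones stand behind a group was not stated in those labels, so an effect of the hairpin or of a clone cannot be told apart from an effect of DBC1. All values below are log2 intensities normalised by the authors, so a difference of 1 is a doubling; levels of different genes are not compared, because probe sets differ in brightness.

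The target gene CCAR2 read 9.62 and 9.41 in shNS and 8.76 and 8.16 in shDBC1, 48.1% of the control intensity, with a limma adjusted p of 1. Across the 13813 genes, limma (a linear model with a moderated variance) called 0 at a Benjamini-Hochberg adjusted p under 0.05, and 475 had an unadjusted p under 0.05. Leaving out the second shNS array gave 202 such genes, and leaving out the second shDBC1 array also gave 202. All 6 genes set as markers of this line (VIM, CD44, CAV1, AXL, MSN and LGALS1) lay between 12.4 and 13.2 on every array, and ESR1 and PGR were under the filter level of 6.58. ERBB2, EPCAM, CDH1 and GATA3, set as low in this line, lay above that level on every array. PTPRC, the general leukocyte marker, was at 4.39 to 4.54, while 4 of 7 leukocyte markers (CD68, CD14, LAPTM5 and CD79A) lay above the filter level on every array. The mean of 2 of 3 kidney or neural, 3 of 6 fibroblast and 3 of 5 endothelial markers with a value lay above it. EPCAM read 8.78 and 9.61 in shNS and 8.39 and 9.22 in shDBC1, higher on the second array of each group, as several NF-kB targets below were, and its part in their spread was not tested.

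The promoters of these genes are shown first. RefSeq promoter sequences (GRCh38.p14; 250 bases before to 50 after a gene's start) were at hand for 33 of the 42 genes. They were searched on both strands for the NF-kB consensus, a motif of 10 letters. It was found in at least 1 promoter of 16 of the 33 genes (48.5%), against 13.3% of the 27305 genes in the table and 11.3% of its 35116 promoters. Among the tested genes in the table the share was 17.6%. The genes here were chosen for their known place in the pathway, so the comparison says nothing about shDBC1. Among the genes listed as targets, VCAM1, CFLAR, LTB and IL32 held a match, and TNF, CSF2, ICAM1, SOD2 and TNFAIP2 held none. CSF1, CSF3, C3 and IER3 had no promoter in the table. A match is a run of letters and no evidence of binding in these cells. The stretches below are written on the gene's own strand with each match in capitals, all of them before the start. NFKB2 and NFKBIZ had matches before more than 1 start, and only 1 stretch of each is shown. The first 6 belong to genes whose shDBC1 arrays both lay below both shNS arrays, and the last 3 to genes whose groups overlapped. Further tested genes with a match and overlapping groups (BCL3, NFKBIB, CYLD, LTB, IL32 and CFLAR) are not shown, so the stretches give no proportion:
VCAM1, chr1:100719660-100719709, plus strand: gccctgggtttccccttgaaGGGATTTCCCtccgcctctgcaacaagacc
NFKBIA, chr14:35404801-35404850, minus strand: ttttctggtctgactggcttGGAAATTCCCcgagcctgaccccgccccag
TNIP1, chr5:151081047-151081096, minus strand: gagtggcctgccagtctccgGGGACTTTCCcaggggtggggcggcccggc
TRAF3, chr14:102777396-102777445, plus strand: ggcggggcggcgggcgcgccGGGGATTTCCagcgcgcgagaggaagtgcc
NFKB2, chr10:102395664-102395704, plus strand: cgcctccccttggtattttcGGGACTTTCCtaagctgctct
NFKBIZ, chr3:101827747-101827796, plus strand: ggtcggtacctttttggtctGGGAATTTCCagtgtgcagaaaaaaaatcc
NFKB1, chr4:102501290-102501339, plus strand: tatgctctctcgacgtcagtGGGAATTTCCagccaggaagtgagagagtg
TNFAIP3, chr6:137867172-137867221, plus strand: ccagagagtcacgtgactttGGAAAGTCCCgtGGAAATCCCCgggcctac
REL, chr2:60881507-60881556, plus strand: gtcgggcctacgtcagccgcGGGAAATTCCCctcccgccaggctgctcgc

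In VCAM1 the match began 62 bases before the start, in NFKBIA 81 and in TNIP1 42. TNFAIP3 held a pair of matches that began 67 and 55 bases before its start. Of the 29 tested genes with a promoter in the table, the 15 with a match had a median difference of -0.24 (shDBC1 minus shNS), and 11 of them were below 0. The 14 without a match had a median of -0.13, with 9 below 0 (47.7% over all genes tested). Both shDBC1 arrays lay below both shNS arrays in 6 of the 15 and in 4 of the 14 (13.2% over all genes tested). VCAM1, which passed the filter only through its shNS arrays, is among the 15. Over all tested genes in the table, the 1923 with a match had a median difference of -0.0014 and the other genes one of 0.0045. These are descriptions of the letters in 1 short window, and no test was made of them.

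As a group, more of the NF-kB genes were lower than higher in shDBC1 cells, by small amounts, and none passed the threshold. The difference was below 0 for 25 of 38 genes (65.8%), against 47.7% of all genes tested, and the median was -0.16 against 0.0065. For 13 genes both shDBC1 arrays lay below both shNS arrays (34.2%, background 13.2%), and for 2 genes both lay above (5.26%, background 11.6%). The groups of the other 23 overlapped. Of the 13, only 7 were set apart by a gap of 0.1 or more. VCAM1, whose shDBC1 readings lay under the filter level, is counted in the 7, the 13 and the 25. In limma 0 of the 38 had an adjusted p under 0.05 (background 0%), and the value for each gene was 1. Before adjustment 4 genes had a p under 0.05 (background 3.44%). They were VCAM1, IKBKE, NFKBIA and CSF1, all lower (background 2.57% lower and 0.869% higher). VCAM1 passed the filter only through its shNS arrays, which leaves 3 genes beside it. Leaving out an array changed that count to 0 (first shNS), 1 (second shNS), 5 (first shDBC1) or 0 (second shDBC1).

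The mean level over the 38 genes was 9.77 and 9.81 on the shNS arrays and 9.67 and 9.59 on the shDBC1 arrays, so the second shDBC1 array was the lowest of the 4. Without it the median difference was -0.097. With 2 arrays a group, an exact permutation test of a single gene cannot go below p = 0.333. The precision of each value is therefore given by limma's standard error (SE). Its median was 0.16 over the 38 genes, above the 0.135 over all genes tested. In RNA from a whole culture, fewer cells expressing a gene and less RNA per cell cannot be told apart.

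For 6 of the 38 genes (TNIP1, TNFRSF1B, CSF1, CSF3, VCAM1 and TNFAIP2) the difference stayed within 1.5 times of its value whichever array was left out, VCAM1 in the 3 such fits that tested it. For the other 32 it did not in at least 1 fit. Each such fit left the same-numbered partner of the dropped array unmatched, so a deviation shared by a replicate number also moved the difference. Same-numbered arrays did deviate together (correlation 0.653 across genes). Some markers set for cell identity had differences of similar size, none of them past the threshold after adjustment; those given here were picked for that after their values were seen. LAPTM5, set as a leukocyte marker, differed by -0.49 (SE 0.18), GATA3 by -0.47 (SE 0.12), CAV1 by -0.35 (SE 0.12) and the endothelial markers PECAM1 by -0.69 (SE 0.53) and KDR by 0.42 (SE 0.11). Their part in the NF-kB differences was not tested.

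**Figure D1:**
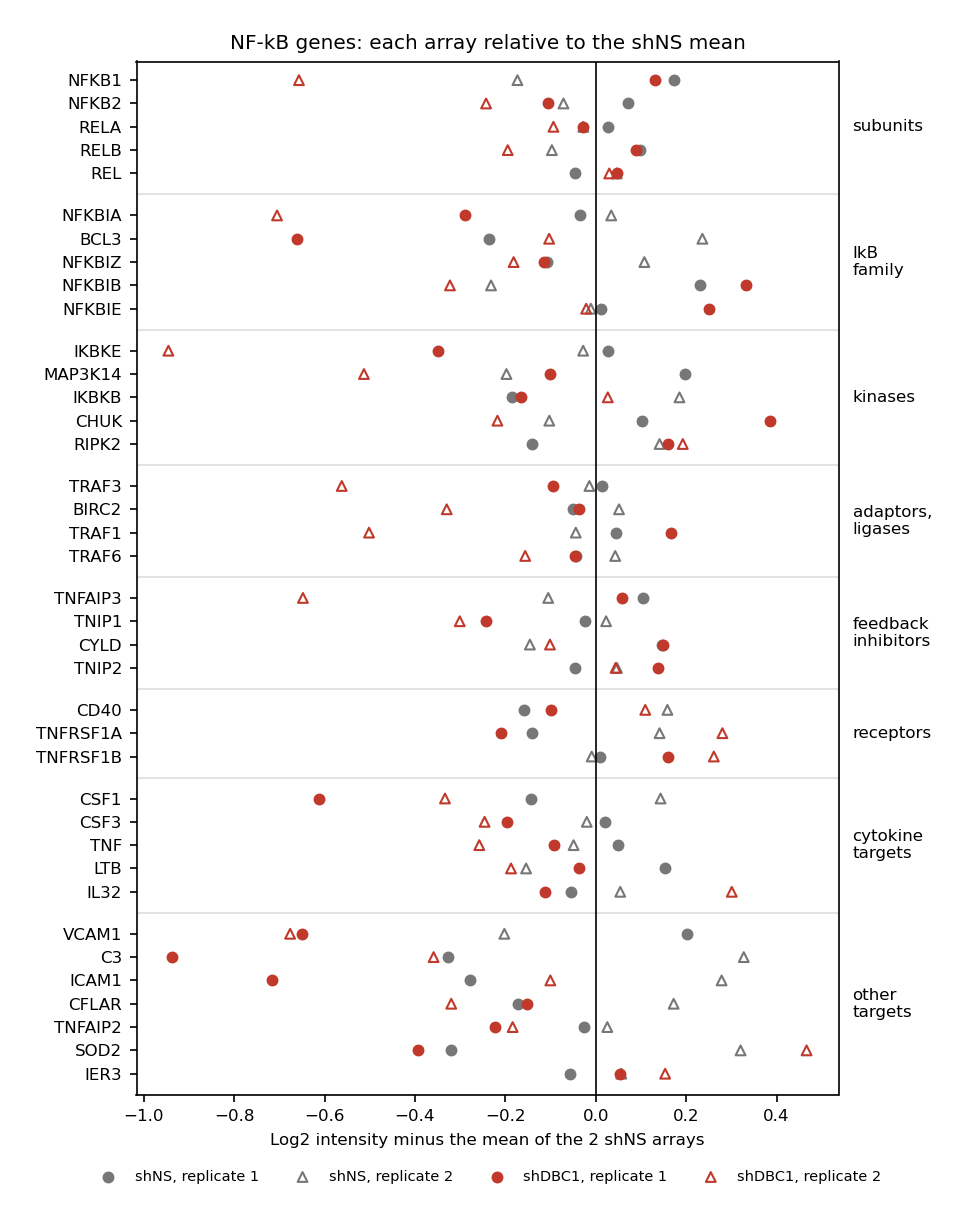
Log2 intensity of each of the 38 NF-kB genes on each array minus that gene's mean over the 2 shNS arrays (x axis), grouped by role; grey is shNS, red is shDBC1, circles are replicate 1 and open triangles replicate 2. The second shDBC1 array (red triangle) is the lower of its pair for IKBKE, NFKBIA, NFKB1 and TNFAIP3, and the first (red circle) for C3, ICAM1 and CSF1.

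Among the subunits, which carry the DNA-binding and activating parts of NF-kB, differences were small. In 1 of 5 both shDBC1 arrays lay below the controls, near the share over all genes (13.2% below, 11.6% above). The difference was below 0 for 4 of the 5 (47.7% over all genes). RELA, the main activating subunit, read 11.07 and 11.02 in shNS and 11.02 and 10.95 in shDBC1. Its difference of -0.06 (SE 0.11) had a 95% interval of -0.34 to 0.22. REL, an activating subunit best known from lymphocytes, read 9.13 and 9.23 in shNS against 9.23 and 9.21, a difference of 0.04 (SE 0.11, interval -0.24 to 0.32). For both genes the interval leaves room for a change of no more than 0.34 in size.

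RELB, the activating subunit of the slower branch, read 9.10 and 8.90 in shNS and 9.09 and 8.81 in shDBC1, a difference of -0.05 (SE 0.15). NFKB2, the precursor subunit of that branch, read 9.90 and 9.76 in shNS and 9.73 and 9.59 in shDBC1. Both its shDBC1 arrays were lower, with a gap of 0.033 between the groups, and the difference was -0.17 (SE 0.12, interval -0.49 to 0.15). NFKB1, the precursor of the partner of RELA, read 10.28 and 9.94 in shNS and 10.24 and 9.46 in shDBC1. Only its second shDBC1 array was below the range of the controls. The difference of -0.26 (SE 0.30) became 0.13 without that array.

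The IkB family holds the proteins that bind NF-kB directly, and NFKBIA had its most negative difference. NFKBIA encodes IkB-alpha, the classical inhibitor, which NF-kB itself induces. It read 12.21 and 12.28 in shNS and 11.95 and 11.54 in shDBC1. The shNS pair was close together and both shDBC1 arrays lay below it, the second further. The difference was -0.50 (SE 0.17, interval -0.95 to -0.04), or 70.8% of the control intensity, and it was -0.29 without the second shDBC1 array.

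NFKBIZ, an inducible nuclear member of the family, read 9.26 and 9.48 in shNS and 9.26 and 9.19 in shDBC1, a difference of -0.15 (SE 0.13). Its groups were separated by only 0.0080. BCL3, a nuclear coactivator that pairs with the precursor-derived subunits, differed by -0.38 (SE 0.26). It read 10.98 and 11.45 in shNS and 10.56 and 11.12 in shDBC1, so the groups overlapped, although shDBC1 was lower within each replicate number. The difference was -0.10 with the first shDBC1 array left out and -0.15 with the second shNS array left out. Fitted with the replicate number as a block, BCL3 had an SE of 0.10 (limma adjusted p 0.157). NFKBIE, a further cytoplasmic inhibitor, differed by 0.11 (SE 0.14). NFKBIB differed by 0.0046 (SE 0.28), a value that was -0.016 after centring the arrays on their medians.

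The separate feedback inhibitors act on the signalling complexes and not on NF-kB itself. TNFAIP3, a ubiquitin-editing enzyme that shuts off TNF signalling, read 9.51 and 9.30 in shNS and 9.46 and 8.76 in shDBC1. The first shDBC1 array lay within the range of the controls and the second below it. The difference was -0.30 (SE 0.26, interval -0.99 to 0.40), and 0.057 without that second array. TNIP1, a ubiquitin-binding partner of TNFAIP3, had tighter replicates. It read 10.33 and 10.37 in shNS and 10.11 and 10.05 in shDBC1, a difference of -0.27 (SE 0.10, interval -0.55 to 0.0045), with a gap of 0.22 between the groups. The related TNIP2 differed by 0.09 (SE 0.11), and CYLD, a deubiquitinase that opposes the pathway, by 0.02 (SE 0.16). Over the IkB family and these inhibitors together, 5 of 9 genes were below 0, near the share over all genes (47.7%), and the median was -0.15. For 3 of the 9 both shDBC1 arrays lay below both shNS arrays (13.2% over all genes), NFKBIZ by only 0.0080.

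**Figure D2:**
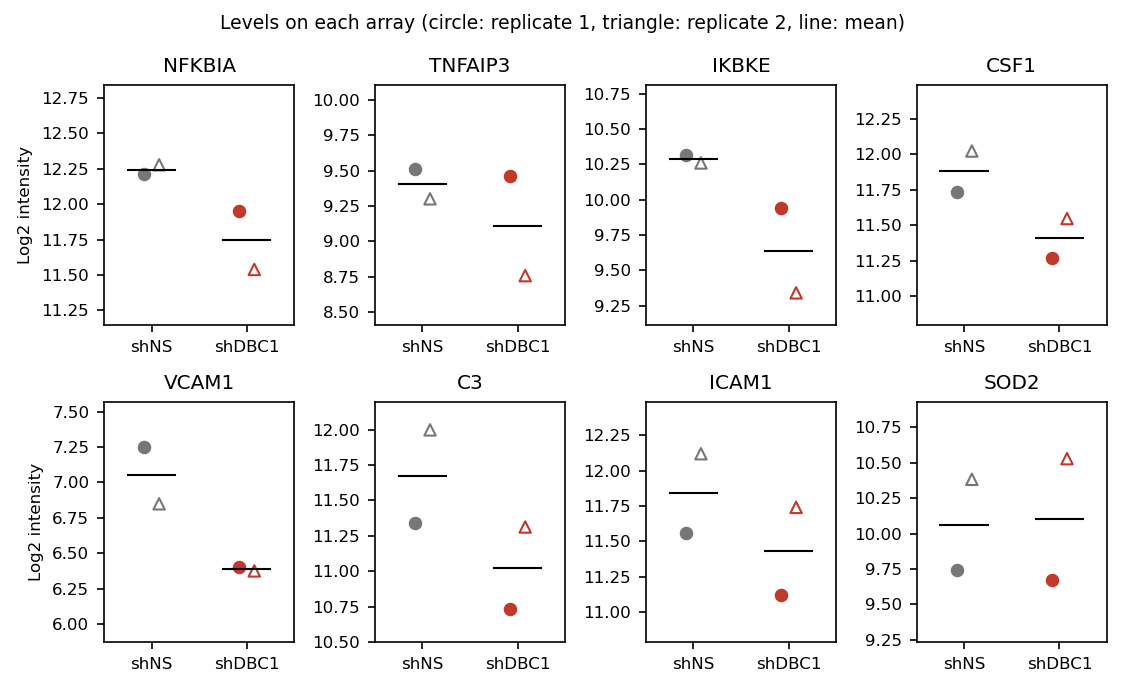
Log2 intensity on each array for 8 NF-kB genes, in panels of equal height in log2 units; circles are replicate 1, open triangles replicate 2 and bars the group means. NFKBIA, IKBKE, CSF1, VCAM1 and C3 have both shDBC1 arrays below both shNS arrays, while TNFAIP3, ICAM1 and SOD2 overlap.

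Of the kinases, IKBKE had the most negative difference, while the intervals of both catalytic IkB kinases included 0. IKBKE, an IkB kinase-related kinase amplified in some breast cancers and inducible by NF-kB, read 10.32 and 10.26 in shNS and 9.94 and 9.34 in shDBC1. The shNS arrays were within 0.1 of each other and the shDBC1 arrays were spread below them. The difference was -0.65 (SE 0.22, interval -1.23 to -0.06), a 1.57-fold lower intensity. Leaving out the second shDBC1 array gave -0.35, and leaving out the first gave -0.95.

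IKBKB, the main kinase of the canonical branch, differed by -0.07 (SE 0.17), and CHUK, its partner and the kinase of the slower branch, by 0.08 (SE 0.23). MAP3K14, which activates CHUK, differed by -0.31 (SE 0.21), with overlapping groups, and by -0.10 without the second shDBC1 array or -0.11 without the first shNS array. Within each replicate number shDBC1 was lower, and a replicate block gave MAP3K14 an SE of 0.099 (limma adjusted p 0.253). RIPK2, the kinase downstream of NOD receptors, read 9.72 and 10.00 in shNS and 10.02 and 10.06 in shDBC1. It was 1 of the 2 genes with both shDBC1 arrays above, by a gap of 0.019, and differed by 0.18 (SE 0.14).

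All 4 adaptors and ligases with a value had a negative difference (47.7% over all genes), between -0.33 and -0.10. In 2 of the 4 both shDBC1 arrays lay below both shNS arrays (13.2% over all genes). TRAF3, which holds MAP3K14 at low levels in resting cells, read 9.23 and 9.20 in shNS and 9.12 and 8.66 in shDBC1. The second shDBC1 array was the low one. The difference was -0.33 (SE 0.18, interval -0.82 to 0.16), and -0.095 without it. TRAF6, the ligase used by interleukin 1 and Toll-like receptors, read 9.06 and 9.14 in shNS and 9.05 and 8.94 in shDBC1, groups set apart by 0.0032. It differed by -0.10 (SE 0.11). BIRC2, a ubiquitin ligase of the TNF receptor complex, differed by -0.18 (SE 0.14), and by -0.036 without the second shDBC1 array. TRAF1, an NF-kB-induced adaptor, differed by -0.17 (SE 0.24), and by 0.17 without that array.

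Of the 3 receptors, TNFRSF1B had the one difference above 0 that kept its sign in every fit run; those of TNFRSF1A and CD40 did not. TNFRSF1B, the second TNF receptor, read 9.18 and 9.16 in shNS and 9.33 and 9.43 in shDBC1. Both shDBC1 arrays were higher, by a gap of 0.15, and the difference of 0.21 (SE 0.11, interval -0.07 to 0.49) was the highest of the 38 genes. TNFRSF1A, the main TNF receptor of most cells, differed by 0.03 (SE 0.21), and by -0.21 without the second shDBC1 array or -0.11 without the first shNS array. CD40, a receptor of the TNF family, differed by 0.0054 (SE 0.16), a value that was -0.015 after median centring and -0.0031 after cyclic loess, so no direction can be given for it.

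Of the 5 cytokine targets measured, 4 had a negative difference (47.7% over all genes), 3 of them with both shDBC1 arrays below the controls (13.2% over all genes). CSF1, the macrophage growth factor, read 11.74 and 12.02 in shNS and 11.27 and 11.55 in shDBC1. Within each group the second array was the higher one, and both shDBC1 arrays lay under the controls by a gap of 0.19. The difference was -0.47 (SE 0.17, interval -0.91 to -0.03), or 72.0% of the control intensity. CSF3, the granulocyte growth factor, read 9.18 and 9.14 in shNS and 8.96 and 8.91 in shDBC1, a difference of -0.22 (SE 0.10, interval -0.50 to 0.05).

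TNF, both an activator and a target of the pathway, read 6.81 and 6.71 in shNS and 6.67 and 6.51 in shDBC1. These readings lie near the filter level of 6.58, and 1 lies under it. The difference was -0.18 (SE 0.12), and the 3 probe sets for TNF held the same values. LTB, which encodes a lymphotoxin subunit, differed by -0.11 (SE 0.15) on its brightest probe set and by 0.12 on its dimmest, so its probe sets disagreed in sign. IL32, an inducible cytokine, differed by 0.09 (SE 0.17).

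The adhesion, complement and protective targets held the 2 most negative differences of all 38 genes. VCAM1, the adhesion molecule that binds leukocyte integrins, read 7.25 and 6.85 in shNS and 6.40 and 6.37 in shDBC1. Its gap of 0.45 was the widest of the 38 genes. The difference was -0.66 (SE 0.17, interval -1.11 to -0.22), a 1.58-fold lower intensity. Both shDBC1 readings lay under the filter level, which leaves the fold poorly determined. Without the first shNS array VCAM1 itself fell under the filter and was not tested.

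C3, the central complement component, read 11.34 and 12.00 in shNS and 10.73 and 11.31 in shDBC1. The second array was higher in both groups, and the groups were set apart by only 0.031. The difference was -0.65 (SE 0.31, interval -1.45 to 0.16), 63.8% of the control intensity. It ranged from -0.98 with the first shNS array left out to -0.32 with the second left out. With the replicate number as a block, C3 was the 1 gene of the 38 that limma called (adjusted p 0.0385; background 0.818%). ICAM1, a leukocyte adhesion molecule, had the same layout, at 11.56 and 12.12 in shNS and 11.12 and 11.74 in shDBC1, with overlapping groups. Its difference was -0.41 (SE 0.29, interval -1.18 to 0.36), and it was -0.10 without the first shDBC1 array. Within each replicate number shDBC1 was lower, and the replicate block gave ICAM1 an SE of 0.10 (limma adjusted p 0.13).

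TNFAIP2, a TNF-induced gene, read 10.35 and 10.40 in shNS and 10.15 and 10.19 in shDBC1, a difference of -0.20 (SE 0.10) with a gap of 0.16. CFLAR, which blocks caspase activation at death receptors, differed by -0.24 (SE 0.16), by -0.55 on its dimmer probe set, and by -0.064 without the second shNS array. IER3, a stress-inducible survival gene, differed by 0.10 (SE 0.11). SOD2, the mitochondrial superoxide dismutase and a standard NF-kB target, read 9.74 and 10.38 in shNS and 9.67 and 10.53 in shDBC1. Its replicates were further apart than its groups, and the difference of 0.04 (SE 0.37) had an interval of -0.93 to 1.01. Across the 12 targets of both kinds, 9 were below 0 (47.7% over all genes) and the median was -0.21. The 9 include VCAM1, which passed the filter only through its shNS arrays, and LTB, whose probe sets disagreed in sign.

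**Figure D3:**
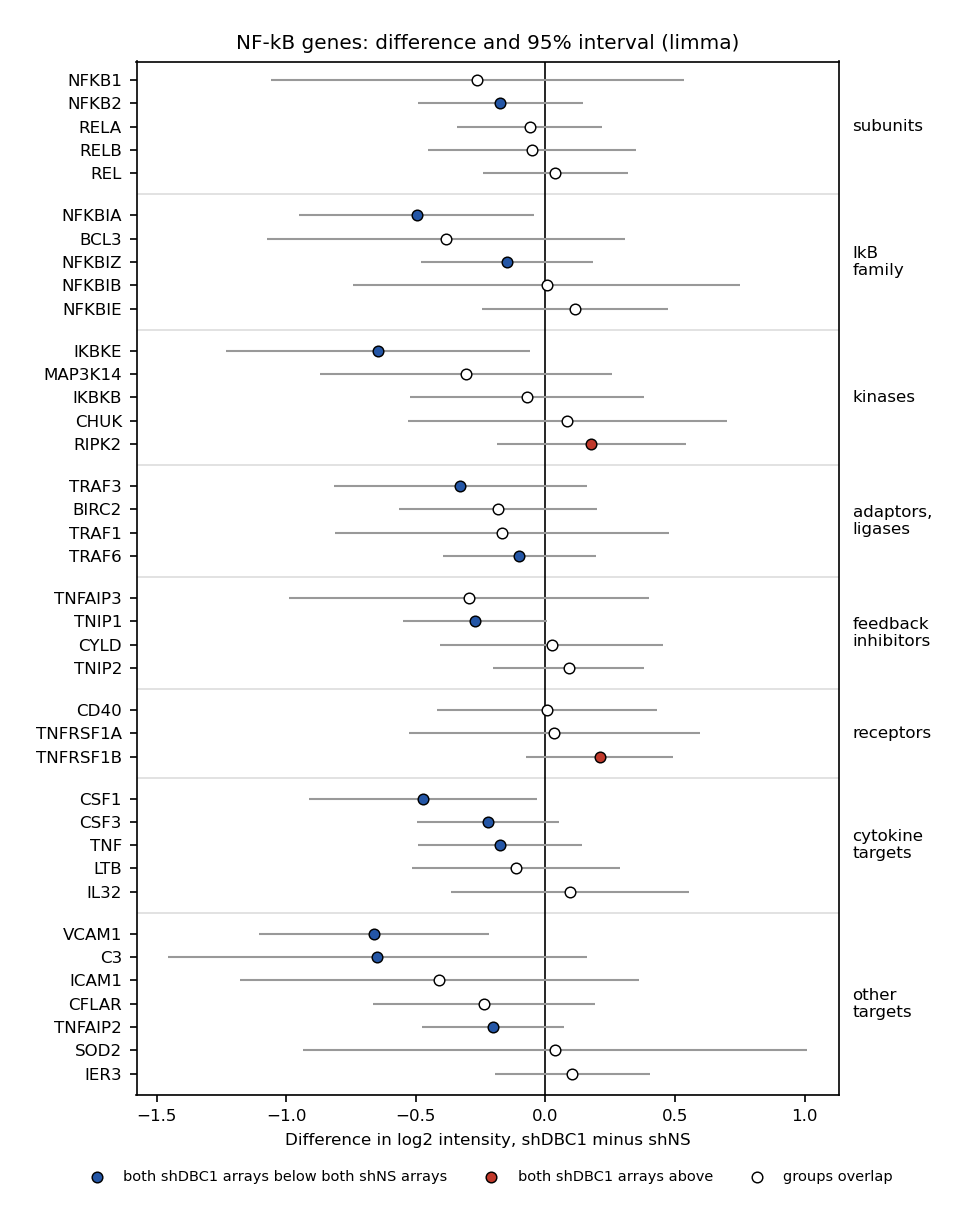
Difference in log2 intensity, shDBC1 minus shNS (points), with the 95% interval from limma (bars), for 38 NF-kB genes by role. The intervals of 4 genes (VCAM1, IKBKE, NFKBIA and CSF1) lie wholly below 0 before adjustment (2.57% over all genes). None lies wholly above (0.869% over all genes), and none of the genes passed after adjustment. VCAM1, 1 of the 4, passed the filter only through its shNS arrays.

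Pathway genes outside the 42 were counted from a list written with the same roles in mind. Of 75 such genes (44 in upstream signalling, 31 further targets), 68 were tested, 0 passed in either direction in limma, and 48 had a negative difference (47.7% over all genes). At an unadjusted p under 0.05, 7 were lower and 0 higher (2.57% and 0.869% over all genes). Those with the smallest p were the chemokines CCL2 (-0.83, SE 0.12) and CXCL1 (-0.89, SE 0.21), the kinase MAP3K8 (-0.36, SE 0.10), the ubiquitin ligase subunit SHARPIN (-0.45, SE 0.13), the RNA sensor TLR3 (-0.88, SE 0.29) and the transcription factor IRF1 (-0.49, SE 0.18). TLR3 was at -0.48 without the second shNS array and IRF1 at -0.28 without the second shDBC1 array. With the replicate number as a block, CCL2 passed (limma adjusted p 0.0277). The upstream genes had a median of -0.06 and the further targets one of -0.12, between the median of all genes and that of the 38. CXCL1 and its close copies share sequence, so the value of each is uncertain.

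By size, C3 and IKBKE were at least 1.5-fold lower, as was VCAM1, whose fold is poorly determined, which makes 3 of 38 (background 1.38%). None of the 38, 0 in all, was at least 1.5-fold higher (background 0.376%). In rank among the 13813 genes from the most negative difference, C3 was at 136, IKBKE at 138 and NFKBIA at 296.

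**Figure D4:**
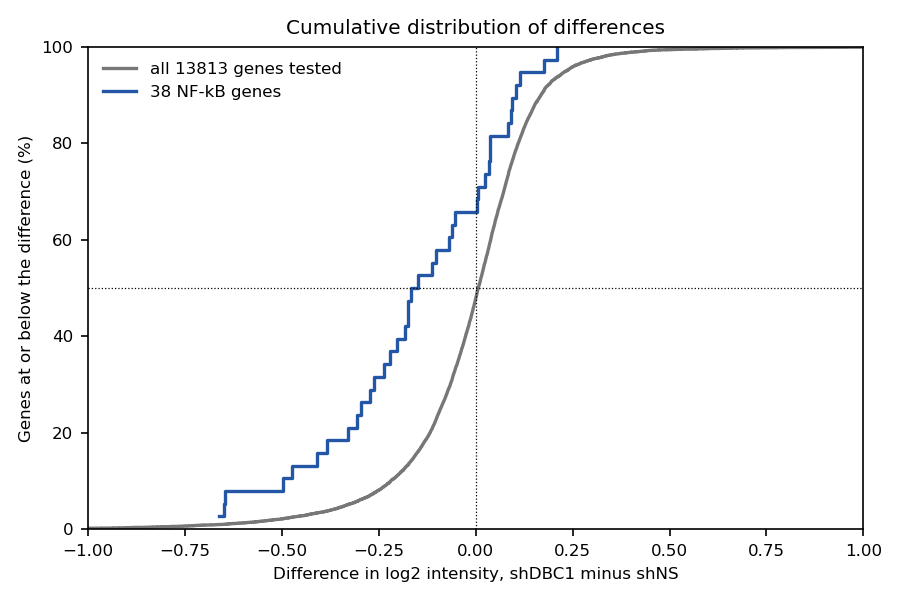
Cumulative share of genes (y axis, percent) at or below each difference in log2 intensity, shDBC1 minus shNS (x axis), for all 13813 genes tested (grey) and the 38 NF-kB genes (blue); 28 genes beyond 1 in size lie outside the plot. The blue line begins at -0.66 and lies above the grey one from there on, with medians of -0.16 and 0.0065.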

How the data were processed

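Per the submitters' processing notes, GCOS and RMA were used; RMA subtracts background, makes the arrays' distributions alike and condenses the probes of a set to 1 value. The values the authors deposited were read as log2 intensities, from RMA being named and from their range of 2.52 to 14.1; array medians ran from 7.32 to 7.40. No version, filter or genome build is given in the sources used here. RMA compresses folds of dim genes, and 2 arrays per group limit the precision.

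Of 33297 probe sets, 19460 named 1 gene in the platform's table, 1754 several and 12083 none. Each gene was read from its brightest probe set, and genes under the 25th percentile (6.58) were left out. limma 3.58.1 in R 4.3.3 (group as the only term, two-sided) was fitted to all genes tested, with Benjamini-Hochberg adjustment over all of them; it had 2 residual and 2.60 prior degrees of freedom. The procedure was run on simulated data with independent noise and planted changes of 2-fold or more. That run does not bear on smaller differences, or on arrays that deviate together.

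The members, roles and lists were chosen with earlier results of these data known. Genes were given on every array where they were subunits, had groups that did not overlap, differed by 0.4 or more, or were NFKBIA or TNFAIP3 (21 of 38); BCL3 and SOD2 were added after their values were seen. Up to 6 further pathway genes were named by the smallest p. Alternatives covered the filter, the scaling, the variance prior, the probe sets of a gene, a replicate block and each left-out array.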

Additional observations from a re-analysis of the deposited data

How the results depend on the processing

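With all 4 arrays kept, 35 of the 38 NF-kB genes had the same direction under each filter, scaling, prior, probe set choice and block in which they were tested (3 of them, VCAM1, TNF and TRAF1, were left out by the 50th percentile filter and not tested there). The exceptions were NFKBIB at -0.016 and CD40 at -0.015 under median centring, CD40 at -0.0031 under cyclic loess, and LTB at 0.12 on its dimmest probe set. The number of genes with both shDBC1 arrays above was 4 after repeated quantile normalisation and 1 after median centring. With an array left out as well, 23 of the 38 kept their direction. Such fits ranged from -0.66 to 0.13 for NFKB1, -0.0082 to 0.084 for REL, -0.19 to 0.089 for RELB, -0.32 to 0.33 for NFKBIB, -0.021 to 0.25 for NFKBIE, -0.25 to 0.12 for IKBKB, -0.22 to 0.38 for CHUK and -0.50 to 0.17 for TRAF1. They ranged from -0.65 to 0.057 for TNFAIP3, -0.12 to 0.17 for CYLD, -0.21 to 0.28 for TNFRSF1A, -0.15 to 0.16 for CD40, -0.27 to 0.042 for LTB, -0.11 to 0.30 for IL32 and -0.39 to 0.47 for SOD2. In these fits the median difference ran from -0.19 to -0.097, NF-kB genes at an unadjusted p under 0.05 from 0 to 5, those with the remaining shDBC1 arrays below from 18 to 25 and above from 3 to 8 (fewer arrays overlap less), and all genes at that p from 202 to 553. The same-numbered arrays of the groups deviated together (correlation 0.653 across genes), but the labels do not say what a number shares, and 2 pairs cannot settle it. With replicate number as a block, limma called 113 of 13813 genes (94 lower, 19 higher; 0.818%) and 1 of the 38 NF-kB genes, C3 (adjusted p 0.0385), as well as CCL2 (0.0277) among the further pathway genes named. Under that replicate block 10 of the 38 and 1612 of all genes had an unadjusted p under 0.05, and CCAR2, at -1.06, had an adjusted p of 0.0232. The cause of these changes was not tested. The block cost a residual degree of freedom, and no call was made under any other alternative. Readings near the filter level, as for TNF and VCAM1, limit the size of a fold.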
